A study of Mus musculus with 67 samples.

Results

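The HoxB cluster was examined in RNA-seq of mouse forelimb buds. Its members were the gene entries of the expression tables whose name was *Hoxb1* to *Hoxb9* or *Hoxb13*, which gave 10 genes among 46983 gene IDs. Of these, 9 had at least 1 TPM (a transcript level corrected for transcript length and scaled to the same total in every library) in at least 3 of the 14 libraries, as did 16368 of all gene IDs, and *Hoxb13* was listed at 0 in all 14.

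The study asked whether the repressor GLI3 acts on its targets before the Hedgehog (HH) pathway is switched on in the limb bud. The 14 RNA-seq libraries fall into 4 groups. Pre-HH buds were whole forelimb buds of stage E9.25 (counted in embryonic days, 21 to 23 somites), about 4 pairs pooled per library, from WT Swiss Webster embryos (n = 3) or Gli3-/- embryos (n = 4). Post-HH tissue was the anterior part of E10.5 forelimb buds (32 to 35 somites), 2 pairs per library by the labels, from WT Swiss Webster (n = 4) and Gli3-/- embryos (n = 3). The study's methods give more embryos per E10.5 pool than that. No drug or transgene was used in these libraries. The Gli3-/- embryos carried the Xt-J allele, kept on the same Swiss Webster background, a deletion that removes part of the gene in every cell of the embryo. Since E9.25 buds were taken whole and E10.5 buds were cut, stage and part of the bud cannot be told apart. Each library was a pool of embryos, and p-values measure the spread between pools.

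Hox genes encode homeodomain transcription factors that give cells their position along the body axis. They lie in 4 clusters in which the genes at the 3′ end are switched on first and furthest toward the head, and the genes at the 5′ end later and further toward the tail, and members with the same number in different clusters are paralogs. In the lateral plate mesoderm, HoxB genes are known for their part in placing the forelimb field, where HOX proteins act on *Tbx5*, and HoxA and HoxD genes for the later patterning of the bud. GLI3 in its repressor form limits HH target genes such as *Hand2* and the 5′ HoxD genes in the anterior bud.

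All 10 members lie on the plus strand of chromosome 11, spanning chr11:96194316-96368256 in the tables, which place 99.8% of the 33122 gene IDs that share a symbol with RefSeq over the GRCm38.p6 position of that gene. *Hoxb13* stands apart at the 5′ end, followed by *Hoxb9* to *Hoxb1* without the paralog numbers in between. Each member is a whole gene of this annotation, with the values covering its exons. The 250 bases before the start site, from RefSeq on GRCm38.p6, were found for 3 of the 10 members. All 10 members have a RefSeq gene, but these 3 are the HoxB members in the promoter set used. They are shown to give the sequence beside the values of these genes below. They cover chr11:96281655-96281904 for *Hoxb8*, chr11:96318017-96318266 for *Hoxb4* and chr11:96365508-96365757 for *Hoxb1*, all on the plus strand. Capitals mark matches on either strand to a CDX site (TTTATG), a PBX-HOX site (TGATNNAT), a repeat unit of the retinoic acid receptor site (AGGTCA, not the whole site) or a TATA box (TATAAA).
Hoxb8: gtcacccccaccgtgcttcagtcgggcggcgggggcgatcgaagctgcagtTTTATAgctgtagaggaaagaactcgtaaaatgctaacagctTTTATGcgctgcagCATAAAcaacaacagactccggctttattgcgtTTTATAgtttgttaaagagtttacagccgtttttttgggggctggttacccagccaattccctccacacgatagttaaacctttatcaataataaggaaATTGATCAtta
Hoxb4: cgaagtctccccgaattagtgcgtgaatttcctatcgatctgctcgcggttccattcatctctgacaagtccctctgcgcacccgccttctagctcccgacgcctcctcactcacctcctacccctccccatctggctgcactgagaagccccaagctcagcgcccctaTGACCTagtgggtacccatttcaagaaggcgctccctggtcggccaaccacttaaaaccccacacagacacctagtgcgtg
Hoxb1: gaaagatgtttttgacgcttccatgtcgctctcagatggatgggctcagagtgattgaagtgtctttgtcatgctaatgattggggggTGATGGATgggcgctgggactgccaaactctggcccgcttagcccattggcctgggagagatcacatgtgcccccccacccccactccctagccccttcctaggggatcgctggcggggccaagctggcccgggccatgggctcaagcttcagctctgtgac
*Hoxb8* held 2 CDX sites, whose first bases lie 157 and 143 bases before the start site, a PBX-HOX match at 11 bases and TATA letters on the minus strand at 199 and 110 bases. *Hoxb1* held a PBX-HOX match at 162 bases, and *Hoxb4* a repeat unit of the retinoic acid receptor site on the minus strand at 81 bases. The letters of the GLI core site (GACCACCCA), or the last 8 of them, were in none of the 3 windows. Over 32851 promoters, of 250 bases each, 10.8% held the CDX letters, 7.68% the PBX-HOX letters and 14% the letters of the retinoic acid repeat unit. The TATA letters were in 12.4%, the GLI core in 0.225% and its 8 letters in 1.28%. These short matches describe the letters and not bound sites.

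Library depth was 38.1 to 56.8 M reads, as estimated from the tables, and a TPM of 1 stood for 20.7 to 29.3 reads per kilobase. *Gli3* itself was read first as a check of the labels. At E9.25 it had 44.2, 15.8 and 44.6 TPM in WT replicates 1 to 3 and 14.3, 20.6, 20.8 and 19.1 TPM in Gli3-/-. The library labelled WT replicate 2 therefore lay within the Gli3-/- range, and *Gli3* missed the threshold at E9.25 (log2 fold change -0.74, SE 0.32, limma adjusted p = 0.223). At E10.5 it had 84.3, 73.4, 89.7 and 79.1 TPM in WT and 40.9, 40.3 and 38.7 TPM in Gli3-/-, with no overlap (limma adjusted p = 0.000335). All 8 limb mesenchyme markers, *Prrx1* and *Tbx5* among them, had a group mean of at least 1 TPM in every group, and 9 of 10 neural tube markers were below 1 TPM in every group. Summed neural tube markers were nonetheless at 6.43 to 12.8 TPM in WT and 2.89 to 4.92 TPM in Gli3-/- at E9.25, and erythroid markers reached 23350 TPM in E9.25 Gli3-/- replicate 3, beside 6888 to 18329 TPM in the other 6 libraries of that stage. Summed flank and lateral plate markers were at 25.4 to 67.9 TPM in WT but 90.6 to 236 TPM in Gli3-/- at E9.25. Of these 8 markers, 5 had every Gli3-/- library above every WT library, as did 9.97% of all genes tested. The test passed 3 of the 8 as higher, beside 0.108% of all genes, and of these *Foxf1* reached the filter only through its Gli3-/- libraries. Summed endothelial markers were at 42.9 to 69.3 and 84.3 to 131 TPM in the same groups (3 of 5 without overlap), and intermediate mesoderm markers at 4.35 to 7.61 and 9.07 to 12.4 TPM (2 of 4). Paraxial mesoderm markers were at 26.5 to 28.9 and 22 to 31.6 TPM, and surface ectoderm markers at 157 to 235 and 218 to 360 TPM. At E10.5, erythroid markers were at 33228 TPM in Gli3-/- replicate 3 and at 10080 to 13783 TPM in the other 6 libraries. Between the same groups, summed intermediate mesoderm markers were at 13.3 to 18.1 TPM in WT and 6.3 to 9.51 TPM in Gli3-/-, and surface ectoderm markers at 184 to 225 and 273 to 306 TPM. The intermediate mesoderm sum rested mainly on *Emx2*, as *Lhx1*, *Pax2* and *Pax8* had means under 1 TPM in both groups. Of the 7 surface ectoderm markers, 5 had a negative log2 fold change, and *Fgf8* (1.36) alone passed as higher. Results are given below also without the single libraries named above where they rest on them.

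Summed HoxB transcript levels were lower at E10.5 than at E9.25, and lowest in E10.5 Gli3-/- buds. They came at E9.25 to 232 ± 43.2 TPM in WT (SD, n = 3) and 315 ± 63.6 TPM in Gli3-/- (n = 4), with ranges that overlapped (198 to 281 and 257 to 404 TPM). In E10.5 anterior buds they came to 80.1 ± 14.3 TPM in WT (n = 4) and 19.4 ± 5.63 TPM in Gli3-/- (n = 3), where the highest Gli3-/- library (24.9 TPM) was below the lowest WT library (61.5 TPM). The ratio of mean sums, WT over Gli3-/-, was 4.13 at E10.5. The HoxC sum differed in the same direction at E10.5 (81.5 ± 14.1 and 24.4 ± 5.75 TPM), while the HoxA sum was 370 ± 15.7 and 464 ± 25.4 TPM and the HoxD sum 276 ± 25.1 and 615 ± 65.5 TPM. In these bulk samples, fewer cells with a transcript and less RNA per cell cannot be told apart.

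**Figure D1:**
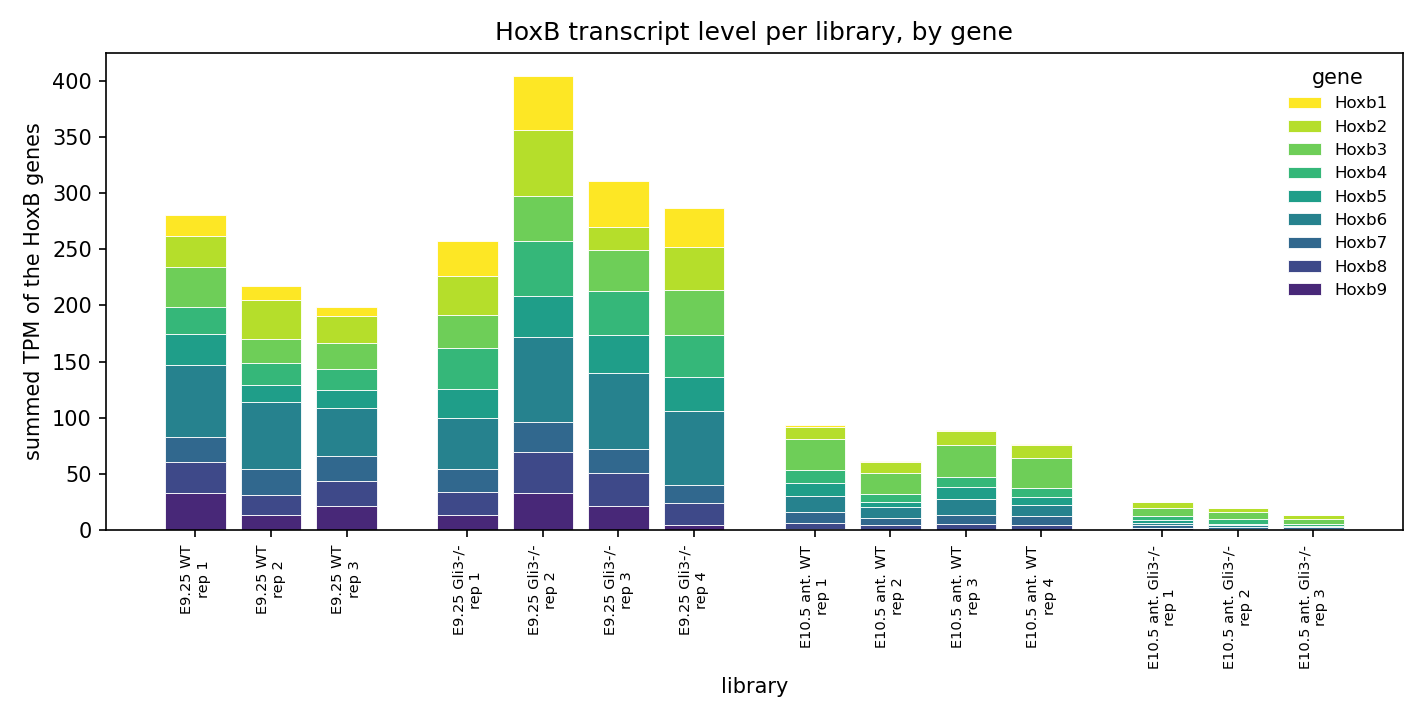
Summed TPM of the HoxB genes (y axis) in each of the 14 libraries (x axis), stacked by gene from *Hoxb9* at the base to *Hoxb1* at the top. The 4 E9.25 Gli3-/- libraries reach 257 to 404 TPM, the E10.5 anterior WT libraries 61.5 to 93.5 TPM and the E10.5 anterior Gli3-/- libraries 13.6 to 24.9 TPM.

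The make-up of the sum differed between groups as well. In E9.25 WT, *Hoxb6* was the highest member with 55.3 ± 12 TPM, and its lowest library (41.9 TPM) was above the highest library of any other member (35 TPM, *Hoxb3*). The next 7 members, from *Hoxb2* (28.9 ± 5.3 TPM) to *Hoxb5* (19.6 ± 6.6 TPM), had ranges that overlapped those of their neighbours in the order. *Hoxb1* was lowest among the 9, with 13 ± 5.9 TPM and a range that still overlapped that of *Hoxb5*. *Hoxb1* made up 5.45% ± 1.62 of the sum in WT and 12.3% ± 0.61 in Gli3-/- at E9.25. In E10.5 anterior WT buds *Hoxb3* led with 32% ± 2.59 of the sum, and it had the highest mean share in E10.5 anterior Gli3-/- with 28.6% ± 1.73, although in replicate 3 *Hoxb2* was above it with 29.8% against 26.9%. *Hoxb6* made up 23.9%, 20.3%, 15% and 5.47% of the sum in E9.25 WT, E9.25 Gli3-/-, E10.5 WT and E10.5 Gli3-/-, in that order.

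**Figure D2:**
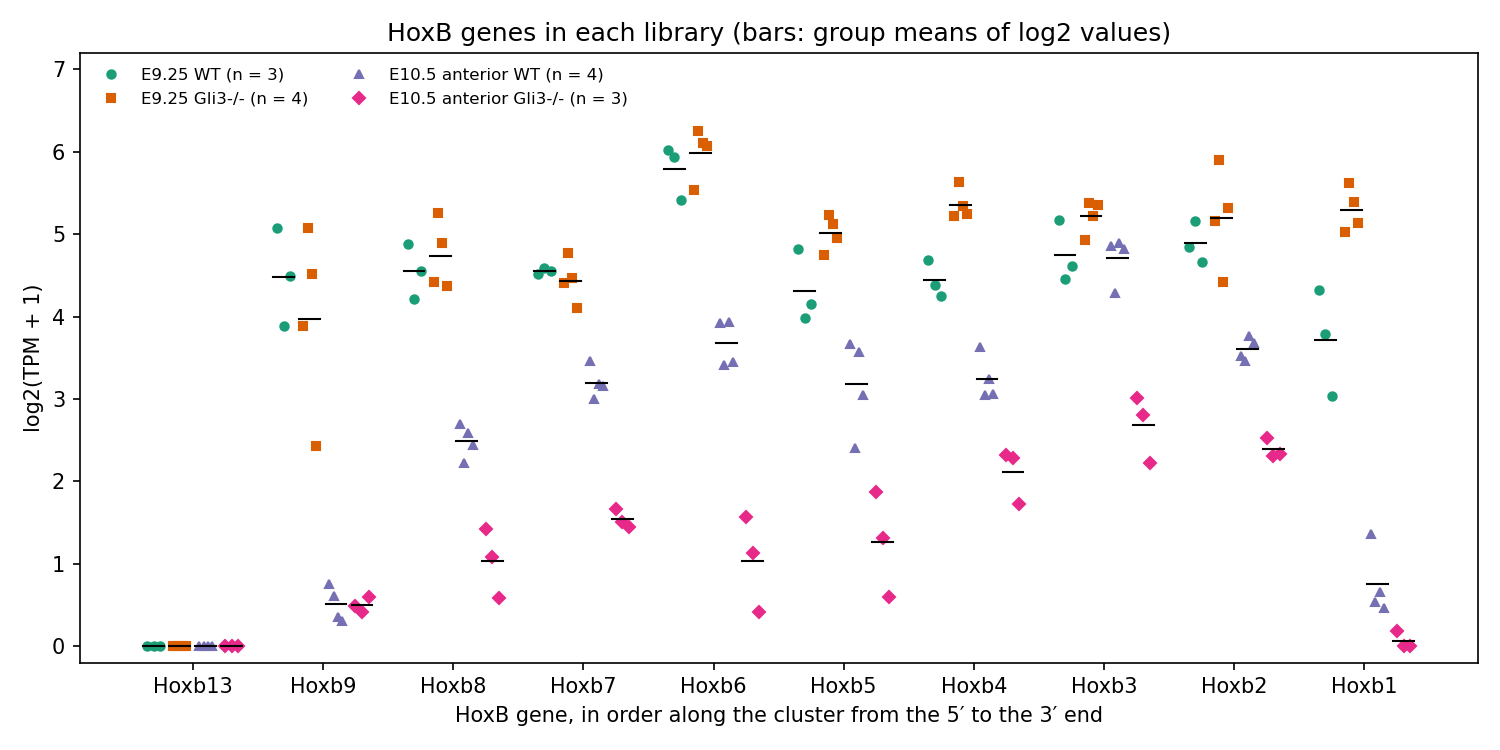
Level of each HoxB gene on the log2(TPM + 1) scale (y axis) in every library, in cluster order from the 5′ to the 3′ end (x axis), with bars at the mean of each group's log2 values. Only *Hoxb1* and *Hoxb4* separate the 2 genotypes at E9.25, while *Hoxb1* to *Hoxb8* do so at E10.5, *Hoxb1* at levels near 0.

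Whether loss of *Gli3* changed HoxB genes before HH signaling was tested at E9.25. None of the 9 members passed (limma on log2(TPM + 1), Benjamini-Hochberg adjusted p over 14760 genes, threshold 0.05), and 4 of 9 had an unadjusted p under 0.05, as did 22% of all genes tested. Among all genes tested, 0.108% passed as higher and 0.0271% as lower, 20 genes in all. The median gene lay 0.23 higher on the log2 scale in Gli3-/-, so that values relative to it are given as well. The largest differences were at the 3′ end and in the middle of the cluster. The median over the 9 members was 0.31, and 0.08 relative to the median gene.

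*Hoxb1*, the 3′ terminal gene, which specifies a segment of the hindbrain, had 19.1, 12.8 and 7.23 TPM in WT and 31.5, 48.1, 41.1 and 34.3 TPM in Gli3-/-. Every Gli3-/- library was above every WT library, and the ratio of means was 2.97. Its log2 fold change was 1.58 (SE 0.28, limma adjusted p = 0.0783), and 1.35 above that of the median gene. *Hoxb4*, a retinoic acid responsive gene of the hindbrain and of blood progenitors, had 24.8, 19.9 and 18 TPM in WT and 36.2, 48.6, 39.7 and 37 TPM in Gli3-/-. Again the groups did not overlap, with a ratio of means of 1.93 and a log2 fold change of 0.92 (SE 0.17, limma adjusted p = 0.0792). These were the 2 of 9 members with every Gli3-/- library higher, a separation seen in 9.97% of all genes tested. With WT replicate 1 left out, *Hoxb1* (1.88, limma adjusted p = 0.0134), *Hoxb4* (1.04, limma adjusted p = 0.0318) and *Hoxb5* (0.95, limma adjusted p = 0.0497) passed, but the genes that passed as higher also went from 0.108% to 1.16% of all genes, and those that passed in all from 20 to 196. Over 16 alternative settings, 0% to 7.04% of all genes passed as higher. The limma adjusted p over these settings ran from 0.0103 to 0.374 for *Hoxb1*, which passed in 4. It ran from 0.0173 to 0.343 for *Hoxb4*, which passed in 3, and from 0.0497 to 0.478 for *Hoxb5*, which passed in 1. Without the library labelled WT replicate 2, no member passed. *Hoxb1* then had a difference of 1.61 with limma adjusted p = 0.13 and *Hoxb4* 0.89 with 0.165. The flank marker sum, which was higher in Gli3-/- at this stage as given above, moved in the same direction as *Hoxb1* and *Hoxb4*, and its part in these differences was not tested.

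The other members did not separate the genotypes at E9.25. *Hoxb5*, whose loss is known to shift the shoulder girdle, had 27.2, 14.8 and 16.8 TPM in WT and 25.8, 36.7, 33.8 and 30.1 TPM in Gli3-/-, so that 1 Gli3-/- library lay below WT replicate 1. *Hoxb3*, a hindbrain gene, had 35, 21 and 23.4 TPM in WT and 29.4, 40.7, 36.2 and 39.9 TPM in Gli3-/-. *Hoxb2*, which acts in the same part of the hindbrain as *Hoxb1*, was the most scattered of the 3′ genes. It had 27.6, 34.7 and 24.4 TPM in WT and 34.7, 58.5, 20.4 and 38.7 TPM in Gli3-/-. The 20.4 TPM came from Gli3-/- replicate 3, the library rich in erythroid transcripts at this stage. The log2 fold changes of *Hoxb5*, *Hoxb3* and *Hoxb2* were 0.70, 0.47 and 0.31, with limma adjusted p of 0.217, 0.22 and 0.499. With a library left out, *Hoxb2* ran from 0.076 to 0.57 and passed in none of 7 fits.

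Toward the 5′ end the differences were smaller or had the opposite sign. *Hoxb6*, a gene of the trunk lateral plate, had 64, 60.1 and 41.9 TPM in WT and 45.5, 75.4, 67.8 and 66.1 TPM in Gli3-/-. *Hoxb7* had 21.9, 23 and 22.4 TPM in WT, the tightest group of any member, and 20.2, 26.4, 21.2 and 16.1 TPM in Gli3-/-. *Hoxb8*, which can induce a second *Shh* domain when it is expressed in the anterior limb bud, had 28.4, 17.6 and 22.5 TPM in WT and 20.4, 37.2, 28.8 and 19.7 TPM in Gli3-/-. The ranges of these 3 genes overlapped widely. *Hoxb9*, a patterning gene of the ribs, had 32.7, 13.8 and 21.5 TPM in WT and 13.7, 32.7, 21.9 and 4.4 TPM in Gli3-/-, the low value coming from Gli3-/- replicate 4. The log2 fold changes from *Hoxb6* to *Hoxb9* were 0.20, -0.11, 0.19 and -0.51, with limma adjusted p from 0.53 to 0.685, and all 4 were below the median gene. *Hoxb6* and *Hoxb8* turned negative (-0.034 and -0.041) with median-of-ratios size factors in place of TPM scaling, and *Hoxb9* came to 0.0078 without Gli3-/- replicate 4.

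Seen over all 4 Hox clusters, the E9.25 differences followed the paralog number in a like manner. Spearman's rho between paralog number and log2 fold change was -0.833 over the 9 HoxB genes and -0.88 over 23 genes of the other clusters, as a description across genes that share the same 7 libraries. All 5 HoxB genes of groups 1 to 5 lay above the median gene (0.31 to 1.58), as did 9 of 10 such genes of the other clusters. None of the 4 HoxB genes of groups 6 to 9 did (-0.51 to 0.20), nor any of the 8 others of those groups or the 5 genes of groups 10 to 13. None of these 32 genes passed the test at E9.25, while the lowest values were -2.004 for *Hoxd10* and -1.73 for *Hoxa10*. Under quantile normalization or median-of-ratios size factors 1 HoxA gene passed as lower.

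Loss of *Gli3* at E10.5, after HH signaling has begun, was a different case. All 7 members that could be tested, *Hoxb2* to *Hoxb8*, fell in anterior buds, where 2.93% of 15654 genes passed as lower, and their median log2 fold change was -1.66 beside -0.02 for all genes tested. *Hoxb1* and *Hoxb9* were under the filter. Each of the 7 had all Gli3-/- libraries below all WT libraries, a separation seen in 11.5% of all genes tested. *Hoxb5*, *Hoxb6* and *Hoxb8* reached the filter only through their WT libraries.

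*Hoxb6* fell most, from 14.1, 9.63, 14.3 and 9.9 TPM in WT to 1.97, 1.18 and 0.337 TPM in Gli3-/-. The log2 fold change was -2.64 (SE 0.26, limma adjusted p = 0.000768), and 7 of the 15654 genes tested had a more negative value. The ratio of mean TPM, WT over Gli3-/-, was 10.3. *Hoxb3*, the most abundant member in this tissue, fell from 28, 18.6, 28.7 and 27.2 TPM to 7.08, 5.98 and 3.66 TPM. Its log2 fold change was -2.04 (SE 0.21, limma adjusted p = 0.000823), and the lowest WT library stood clear of the highest Gli3-/- library.

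*Hoxb5* fell from 11.7, 4.31, 10.9 and 7.29 TPM in WT to 2.67, 1.48 and 0.508 TPM in Gli3-/-, a log2 fold change of -1.92 (SE 0.35, limma adjusted p = 0.0165). *Hoxb7* fell from 10, 6.99, 8.1 and 7.9 TPM to 2.18, 1.83 and 1.73 TPM, a change of -1.66 (SE 0.14) with the lowest adjusted p of the cluster (limma, 0.000421). *Hoxb8* fell from 5.46, 3.67, 5 and 4.42 TPM to 1.67, 1.12 and 0.503 TPM, a change of -1.46 (SE 0.2, limma adjusted p = 0.00456). In all 3 genes the Gli3-/- libraries kept the same order, with replicate 1 highest and replicate 3 lowest.

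The 2 smallest changes belonged to *Hoxb2* and *Hoxb4*. *Hoxb2* fell from 10.46, 10.1, 12.6 and 11.8 TPM to 4.75, 3.93 and 4.05 TPM, a log2 fold change of -1.22 (SE 0.12, limma adjusted p = 0.000643). *Hoxb4* fell from 11.4, 7.3, 8.47 and 7.35 TPM to 4, 3.85 and 2.31 TPM, a change of -1.14 (SE 0.19, limma adjusted p = 0.0107). The members under the filter had few reads. *Hoxb1* had 1.57, 0.444, 0.581 and 0.374 TPM in WT and 0.136, 0 and 0 TPM in Gli3-/-, and *Hoxb9* had 0.685, 0.53, 0.277 and 0.24 TPM in WT and 0.405, 0.331 and 0.515 TPM in Gli3-/-.

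With Gli3-/- replicate 3 left out, the library rich in erythroid transcripts, 6 of the 7 members still passed, where 1.14% of all genes passed as lower, with log2 fold changes from -2.33 to -0.95. *Hoxb5* then had -1.58 (limma adjusted p = 0.0568, with 0.00378 to 0.0897 over 17 alternatives), and *Hoxb6* had -2.33 (limma adjusted p = 0.00161). The summed limb mesenchyme markers were at 1027 to 1273 TPM in WT and 755 to 789 TPM in Gli3-/- at this stage. Of these 8 markers, 6 were lower and 1 was higher in every Gli3-/- library, where 11.5% of all genes tested were lower in this way. The marker sum moved in the same direction as the HoxB genes, and its part in the fall was not tested. Flank markers were at 7.43 to 10.9 TPM in WT and 7.52 to 19.4 TPM in Gli3-/-, with 2 of 8 genes lower in every Gli3-/- library and none higher.

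**Figure D3:**
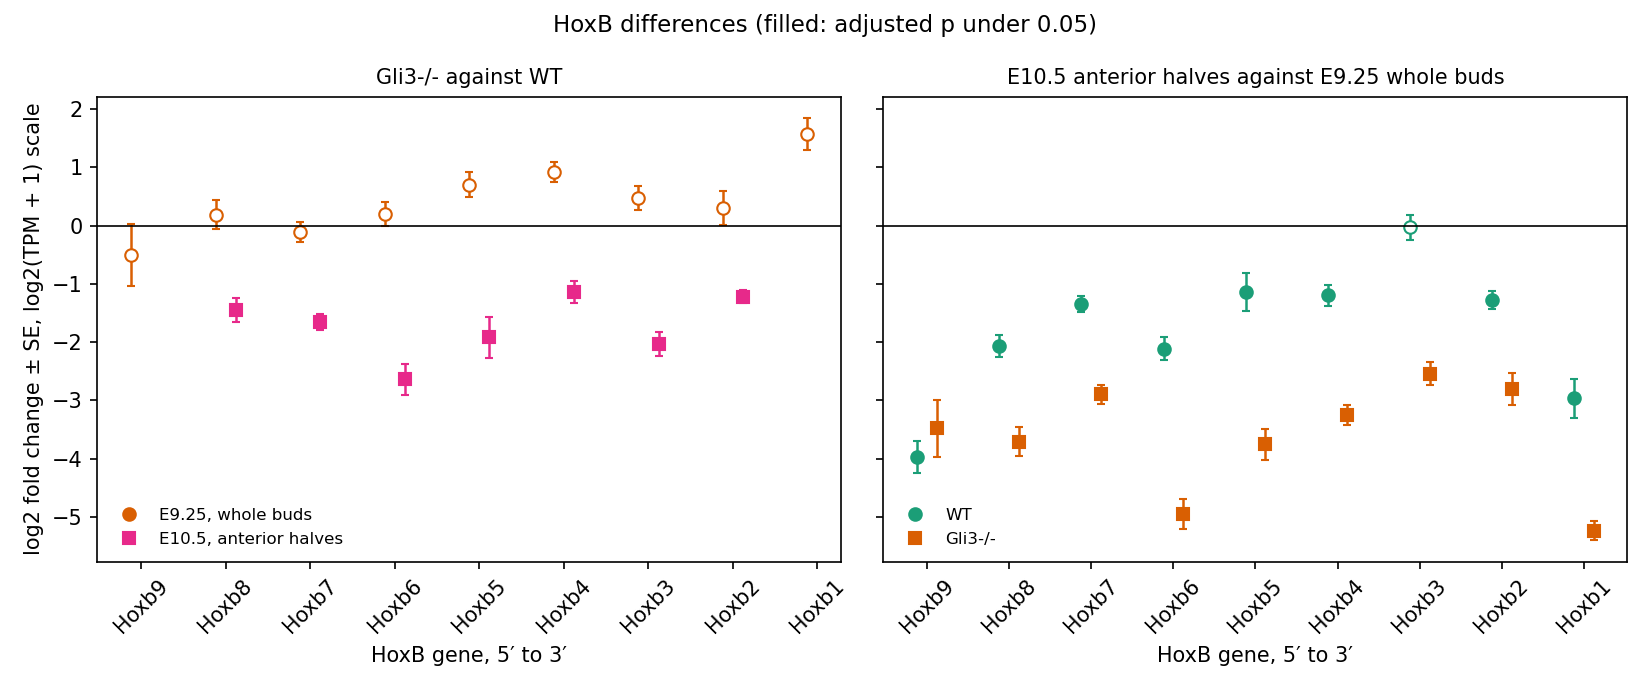
Log2 fold change ± SE (y axis) of each tested HoxB gene (x axis, 5′ to 3′) with loss of *Gli3* at each stage (left) and between stages in each genotype (right), with filled symbols for adjusted p under 0.05. No symbol is filled for E9.25 loss of *Gli3*, all 7 are filled at E10.5, and between stages *Hoxb3* in WT is the one open symbol, at -0.03.

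That the effect of *Gli3* loss differed between the stages was tested as an interaction over all 14 libraries. Of 9 members, 8 had a more negative effect at E10.5 than at E9.25 that passed the test, where 1.65% of 16368 genes did. With quantile normalization or median-of-ratios size factors, 7 members passed, and the share of negative values among all genes that passed went from 77.6% to 52.5% or 63.3%. The differences of log2 fold changes ran from -1.53 for *Hoxb2* to -2.84 for *Hoxb6*, with *Hoxb1* at -2.27 (SE 0.39, limma adjusted p = 0.00716) and *Hoxb4* at -2.06 (SE 0.26, limma adjusted p = 0.00087). *Hoxb9* was the exception, with 0.50 (SE 0.64, limma adjusted p = 0.644). Over 23 alternative settings *Hoxb2* passed in 11 and *Hoxb8* in 14 (limma adjusted p = 0.0347 and 0.0219 in the main fit). The other members that passed did so in at least 21. *Hoxb1* and *Hoxb9* could be tested only because their E9.25 levels pass the filter. Without the library labelled WT replicate 2 at E9.25, 7 members passed (0.949% of all genes did as negative), *Hoxb8* having -1.47 (limma adjusted p = 0.0564), and without E10.5 Gli3-/- replicate 3, 6 passed (0.677%). With the replicate number as a block, 3 members passed (*Hoxb4*, *Hoxb6* and *Hoxb7*). Of all genes, 0.159% passed as negative by title numbers and 0.238% by the deposited tables' numbers. The title numbers did not pair the libraries, while the deposited tables' numbers may pair those of E10.5. Of the 8 flank markers, 5 also had a negative difference that passed, and their part in these values was not tested. At E10.5, 6 of the 8 had a mean under 1 TPM in WT and 7 in Gli3-/-.

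The decline between stages was seen in both genotypes. In WT, 8 of 9 members were lower in E10.5 anterior buds than in E9.25 whole buds, where 10.6% of 15444 genes passed as lower. The same 8 members had every E10.5 library below every E9.25 library, against 12% of all genes tested. The median over members was -1.35, while the median gene lay 0.34 higher at E10.5. The same number of members, 8, passed as lower under quantile normalization, where 19.7% of all genes did (53.3% of all calls were lower in place of 21.7%), and under median-of-ratios size factors (21.2% of genes, 50.7% of calls). In Gli3-/-, all 9 members were lower (9.17% of 15434 genes passed as lower) and none overlapped between the stages (13.4% of genes), with a median over members of -3.48 and 0.06 for all genes tested. There, 36.8% of all calls were lower, and 48.3% or 47.8% under those 2 scalings, with all 9 members lower in both. Most flank markers moved in the same direction, with 5 of 6 lower in WT and 7 of 8 in Gli3-/-. The remaining marker in WT, *Osr1*, passed as higher (1.54), and 0 passed as higher in Gli3-/-. The part of these markers in the decline was not tested. Of those lower in WT, *Gata4*, *Gata5*, *Wt1* and *Hand1* reached the filter only through E9.25 libraries, as did all 7 in Gli3-/-. These comparisons use the same libraries as those between genotypes and are not separate evidence.

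*Hoxb9* and *Hoxb1*, the outermost of the 9 expressed members, fell most in WT. *Hoxb9* went from a mean of 22.6 TPM to 0.433 TPM (log2 fold change -3.98, SE 0.27, limma adjusted p = 4.79e-05), and 2 of 15444 genes had a more negative value. *Hoxb1* went from 13 to 0.743 TPM (-2.97, SE 0.33, limma adjusted p = 0.000375). Both reached the filter only through E9.25 libraries. *Hoxb6* and *Hoxb8* fell by 2.11 and 2.06 on the log2 scale, and *Hoxb7*, *Hoxb2*, *Hoxb4* and *Hoxb5* fell by 1.14 to 1.35. *Hoxb5* had -0.89 without E9.25 WT replicate 1 and missed the threshold (limma adjusted p = 0.0577, with 0.00339 to 0.0577 over 16 alternatives). Without the library labelled WT replicate 2, *Hoxb9* was under the filter and 7 of the other 8 members passed, where 9.65% of all genes passed as lower.

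*Hoxb3* was the member that did not pass in WT. It had 35, 21 and 23.4 TPM at E9.25 and 28, 18.6, 28.7 and 27.2 TPM at E10.5, with ranges that overlapped and a log2 fold change of -0.03 (SE 0.21, limma adjusted p = 0.907). Its share of the cluster sum therefore went from 11.3% to 32%. Relative to the median gene its value was -0.37, and it came to 0.18 without E9.25 WT replicate 1 and to 0.11 without E10.5 WT replicate 2, none of which passed. In Gli3-/- the same gene fell by 2.54 on the log2 scale (SE 0.2, limma adjusted p = 1.09e-05), the smallest fall among the 9 members there.

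In Gli3-/-, *Hoxb1* fell by 5.23 on the log2 scale (SE 0.17, limma adjusted p = 4.57e-08), from 38.8 ± 7.4 TPM to 0.0454 TPM, and 1 of 15434 genes had a more negative value. *Hoxb6* fell by 4.95 (SE 0.26, limma adjusted p = 8.78e-07), from 63.7 ± 13 to 1.16 ± 0.82 TPM. *Hoxb5*, *Hoxb8*, *Hoxb9* and *Hoxb4* fell by 3.25 to 3.76, and *Hoxb7* and *Hoxb2* by 2.90 and 2.81. Of the 9, *Hoxb1*, *Hoxb5*, *Hoxb6*, *Hoxb8* and *Hoxb9* reached the filter only through E9.25 libraries. Leaving out any 1 library kept all 9 past the threshold, where 5.85% to 12.7% of all genes passed as lower.

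**Figure D4:**
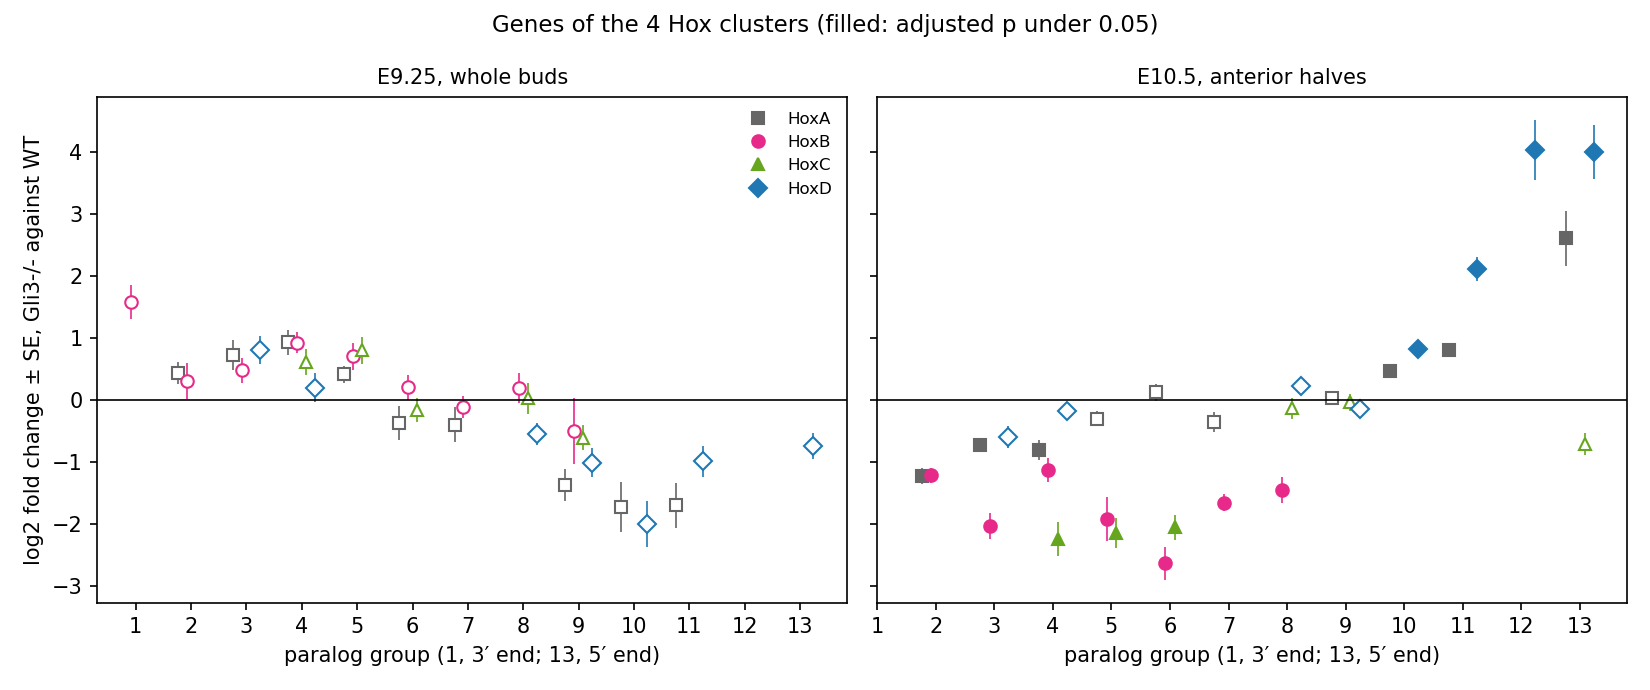
Log2 fold change ± SE with loss of *Gli3* (y axis) against paralog group (x axis, 1 at the 3′ end) for tested genes of the 4 Hox clusters at E9.25 (left) and E10.5 (right), with group 1 drawn for HoxB alone, filled where adjusted p is under 0.05. At E10.5 the HoxB genes lie between -2.64 and -1.14, while the HoxA and HoxD genes of groups 10 to 13 lie between 0.46 and 4.03.

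At E10.5 the clusters parted. Of HoxA, HoxC and HoxD genes in groups 1 to 5, 6 of 9 fell and none rose with loss of *Gli3*, and in groups 6 to 9, 1 of 8 fell (*Hoxc6*, -2.05), while all 3 HoxB genes of those groups fell. Of the 8 genes of groups 10 to 13, 7 rose, among them *Hoxd13* (3.99) and *Hoxd12* (4.03), which pattern the digits and are repressed by GLI3. *Hoxd12* reached the filter only through its Gli3-/- libraries. Among all genes, 1.84% rose and 2.93% fell. *Hoxa13* rose by 2.60 and *Hoxd11* by 2.11. The whole HoxC cluster had 3 of 6 genes lower and none higher (median -1.39), among them *Hoxc4* (-2.24), *Hoxc5* (-2.14) and *Hoxc6*. HoxA had 3 higher and 4 lower of 11 (median -0.31; *Hoxa2* at -1.23 and *Hoxa4* at -0.81), and HoxD 4 higher and none lower of 8 (median 0.52). Median-of-ratios scaling turned the sign of no called gene here. In the interaction, 4 HoxA genes were more positive and 4 more negative of 11, 3 of 6 HoxC genes were more negative, and 4 HoxD genes were more positive and 1 more negative of 9, beside 0.477% and 1.65% of all genes. The values farthest from 0 were 2.63 for *Hoxa13*, 2.51 for *Hoxa11* and 2.19 for *Hoxa10*, -2.94 for *Hoxc5*, -2.85 for *Hoxc4* and -1.89 for *Hoxc6*, and 4.74, 4.04 and 3.10 for *Hoxd13*, *Hoxd12* and *Hoxd11*. Between stages the same genes split in WT, with 6 HoxA genes higher and 3 lower of 11 and 2 HoxD genes higher and 4 lower of 8, among them *Hoxa11* (3.26), *Hoxa10* (3.25), *Hoxd11* (3.84), *Hoxd1* (-2.73) and *Hoxd10* (1.19), where 38.1% of all genes rose and 10.6% fell. HoxC had 1 higher and 2 lower of 6 in WT (*Hoxc13* 1.48, *Hoxc5* -1.12, *Hoxc4* -0.76). *Hoxd1* reached the filter only through E9.25 libraries and *Hoxc13* only through E10.5 libraries. With quantile normalization these WT counts were 4 higher and 4 lower for HoxA, 1 and 4 for HoxC and 2 and 5 for HoxD, and with median-of-ratios size factors 5 and 4, 1 and 3, and 2 and 4. In Gli3-/- the counts were 5 higher and 5 lower of 11 for HoxA, 1 higher and 4 lower of 5 for HoxC and 4 higher and 2 lower of 9 for HoxD, where 15.8% of all genes rose and 9.17% fell. The leading genes there were *Hoxa11* (5.77), *Hoxa10* (5.44), *Hoxa13* (4.55), *Hoxc5* (-4.06), *Hoxc4* (-3.61), *Hoxc6* (-1.94), *Hoxd11* (6.93), *Hoxd13* (5.57) and *Hoxd12* (5.09), of which *Hoxa11*, *Hoxa13*, *Hoxd11* and *Hoxd12* reached the filter only through E10.5 libraries.

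PBX, MEIS and PKNOX proteins are the TALE homeodomain partners with which HOX proteins bind DNA. At E9.25 none of 8 tested TALE genes passed with loss of *Gli3* (median 0.55, median gene 0.23). At E10.5, 5 of 9 fell and none rose (median -0.73), where 2.93% of all genes fell, led by *Meis1* (-1.40, SE 0.13), *Meis3* (-1.28, SE 0.17) and *Meis2* (-1.25, SE 0.14; limma adjusted p from 0.000586 to 0.00309). In the interaction 5 of 9 were more negative, as were 1.65% of all genes, with *Meis3* at -2.29, *Meis1* at -1.98 and *Meis2* at -1.79. In WT, 5 of 9 were higher at E10.5 (among them *Pbx3* at 0.67, and *Pbx4* at 1.31, which reached the filter only through E10.5 libraries) beside 38.1% of all genes, a split that became 3 higher and 2 lower under median-of-ratios scaling and 4 higher and 2 lower under quantile normalization. In Gli3-/-, 5 of 9 were lower at E10.5, as were 9.17% of all genes (*Meis3* -2.79, *Meis2* -1.74, *Pknox2* -1.57).

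Among 26 listed regulators of Hox genes, 20 or 21 could be tested. *Aldh1a2* makes retinoic acid and marks the flank. It was the 1 gene of 20 that rose with loss of *Gli3* at E9.25, where 0.108% of all genes did (1.76, SE 0.26, limma adjusted p = 0.038). It no longer passed under either other scaling. At E10.5, 1 gene of 20 fell and 1 rose, where 2.93% of all genes fell and 1.84% rose. *Rarb*, a retinoic acid receptor and target, fell (-1.82, SE 0.24, limma adjusted p = 0.00366). *Cyp26b1*, which breaks retinoic acid down, rose (0.78, SE 0.17, limma adjusted p = 0.0325). *Rarb* also differed in the interaction (-1.77, limma adjusted p = 0.00567), as the 1 gene of 21, where 1.65% of all genes were more negative. The list's medians with loss of *Gli3* were 0.34 at E9.25 and -0.01 at E10.5, beside 0.23 and -0.02 for all genes. Between stages, 10 rose and 7 fell of 21 in WT (7 and 7 with quantile normalization, 6 and 7 with size factors) and 4 rose and 6 fell in Gli3-/- (6 and 6, 4 and 7). Of all genes, 38.1% rose and 10.6% fell in WT, and 15.8% rose and 9.17% fell in Gli3-/-. The largest falls were those of *Aldh1a2* (-3.78 in WT, -5.23 in Gli3-/-) and *Cdx1* (-3.69 and -3.82), a caudal factor that activates Hox genes, followed by *Lin28a* in WT (-3.18) and *Nr6a1* in Gli3-/- (-3.38), which time trunk development. *Aldh1a2* in both genotypes and *Cdx1* in Gli3-/- reached the filter only through E9.25 libraries.

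Of 6 genes tied to the limb field, none of 4 passed at E9.25 with loss of *Gli3* (median 0.70, median gene 0.23). At E10.5, 3 of 5 rose: the HH ligand *Shh* (2.49, SE 0.44), *Hand2* (1.90, SE 0.17), which lies upstream of *Shh*, and *Fgf10* (1.05, SE 0.1), the mesenchymal growth factor of bud outgrowth, with limma adjusted p from 0.000544 to 0.0134, where 1.84% of all genes rose. *Shh* reached the filter only through its Gli3-/- libraries. *Shh* was also the 1 gene of 6 that differed in the interaction (2.52, limma adjusted p = 0.0179), where 0.477% of all genes were more positive. Under quantile normalization or size factors 3 did, beside 1% or 0.813% of all genes. Between stages, 2 rose and 2 fell of 4 in WT (*Tbx4* 2.12, *Fgf10* -0.92, *Tbx5* 0.88) and 2 rose and 1 fell of 6 in Gli3-/- (*Tbx4* 2.83, *Shh* 2.49, *Pitx1* -1.60). Of the genes named here, *Tbx4* and *Shh* reached the filter only through E10.5 libraries and *Pitx1* only through E9.25 libraries. Among all genes, 38.1% rose and 10.6% fell in WT, and 15.8% rose and 9.17% fell in Gli3-/-.

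Transcripts that overlap the cluster showed mixed behaviour. *Hoxb5os*, an antisense RNA over *Hoxb5* and *Hoxb6*, had 26.6, 17.3 and 19.8 TPM in E9.25 WT, 19.4, 23.2, 22.3 and 14.9 TPM in E9.25 Gli3-/-, 5.75, 4.5, 4.63 and 3.93 TPM in E10.5 WT and 2.59, 0.701 and 1.35 TPM in E10.5 Gli3-/-. It fell with loss of *Gli3* at E10.5 (-1.22, SE 0.23, limma adjusted p = 0.0195), and *Gm11536*, which lies over *Hoxb3*, fell by 1.17 on the log2 scale (limma adjusted p = 0.0374). *Hoxb3os*, over *Hoxb3* and *Hoxb2*, did not pass (-0.07, limma adjusted p = 0.928), nor did *Gm11539*, between *Hoxb13* and *Hoxb9*, which was at 32 to 54.3 TPM in all 14 libraries. None of these 4 passed at E9.25, where they had -0.08 for *Hoxb5os*, 0.74 for *Gm11536*, 0.63 for *Hoxb3os* and -0.16 for *Gm11539*. The use of strand in the counting is not given in the sources used here, so reads of *Hoxb2*, *Hoxb3*, *Hoxb5* and *Hoxb6* and of their antisense partners cannot be told apart. The other entries within 100 kb were at 1.31 TPM or less in every library, namely *Calcoco2*, *Ttll6*, *Gm11535*, *Gm27898*, *Gm27605*, *Gm53*, *Mir196a-1*, *Mir10a*, *Gm11531*, *Gm11529* and *Skap1*, of which *Ttll6*, *Gm11535*, *Gm27605* and *Gm11529* were listed at 0 throughout.

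How alike the members were was described by Pearson's r over libraries of one stage. The median r over 36 pairs of members was 0.47 at E9.25 (7 libraries) and 0.946 at E10.5 (7 libraries), where the genotypes differ in level. The 5 genes outside the cluster whose profile over the 14 libraries was most like the mean of the 9 members, out of 16359 compared, were *Alx1* (r = 0.99), *Hotairm1* (0.985), *Msantd3* (0.984), *Hoxb5os* (0.979) and *Metrn* (0.976). Over the 7 E9.25 libraries alone, r was 0.877 for *Alx1*, 0.793 for *Hotairm1*, 0.783 for *Msantd3*, 0.526 for *Hoxb5os* and 0.236 for *Metrn*. Points share stage and genotype, and r is given as a description. It takes no account of the size of a change. *Msantd3* had group means of 71.5, 74, 52.6 and 43.1 TPM in E9.25 WT, E9.25 Gli3-/-, E10.5 WT and E10.5 Gli3-/-. *Metrn* had 160, 164, 82.9 and 57.4 TPM in the same order. Of the 5, *Msantd3* alone did not pass with loss of *Gli3* at E10.5 (-0.28, limma adjusted p = 0.108). *Alx1*, a homeobox gene of head and limb mesenchyme, had group means of 29.2, 38, 6.49 and 1.76 TPM in E9.25 WT, E9.25 Gli3-/-, E10.5 WT and E10.5 Gli3-/-.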

How the data were processed

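RNA-seq of forelimb buds was analysed in 14 libraries of 4 groups, of 67 samples in the series. Single reads from TRIzol-extracted RNA were aligned by the authors using HISAT2, and their own tests used DESeq2. The quantifier and annotation are not given in the sources used here, and the labels name mm10. The deposited TPM values, scaled by the authors to the same total per library, were used for all tests. The deposited FPKM values and the authors' coverage (mean depth per base) served only to estimate reads, taking 100 bases a read. These tables hold no counts, so no count model was run. TPM of a gene ID on several lines was summed.

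Genes with at least 1 TPM in at least 3 of the libraries compared were tested on log2(TPM + 1), which understates changes of low genes, with limma 3.58.1 in R 4.3.3 (eBayes with a trend, two-sided, Benjamini-Hochberg over all genes tested, threshold 0.05). Each of the 4 comparisons used its 7 libraries, and the interaction all 14. The script was tested on simulated data. Tables were joined in Python 3.11.15 (pandas 2.3.3, NumPy 2.4.6), rank correlations came from SciPy 1.17.1, and plots from matplotlib 3.10.9.

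The members, lists and tests were chosen with earlier results of these data known. Genes named are all members, entries within 100 kb, the 5 genes most like the cluster, *Gli3*, and up to 3 passing genes per list and comparison with the largest log2 fold change, except 2 genes that are not reported here. *Hoxd10* at E9.25 and others named for an extreme or a count were named after their values were seen. Each library was left out in turn. Other alternatives were array weights, 1 model of all 14 libraries, a replicate block, size factors by median of ratios, quantile normalization, a pseudocount of 0.1, eBayes with no trend, and a filter at 5 TPM or none.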

Additional observations from a re-analysis of the deposited data

Results flagged for a closer look

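In E10.5 anterior WT buds, *Hoxb3* had 1 library far from the others. Replicate 2, at 18.6 TPM, stood apart from 28, 28.7 and 27.2 TPM, and its gap on the log2(TPM + 1) scale was 0.879 of the group's whole range. Chance alone sets apart about 1 in 20 groups by this measure.

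The effect of *Gli3* loss differed between E10.5 anterior and E9.25 whole buds in 8 of 9 members by the limma interaction test, where 1.65% of all genes had a negative difference that passed. *Hoxb1* could be tested only because its E9.25 levels pass the filter. The difference of log2 fold changes, E10.5 minus E9.25, was -1.64 for *Hoxb8*, -1.55 for *Hoxb7*, -2.84 for *Hoxb6*, -2.62 for *Hoxb5*, -2.06 for *Hoxb4*, -2.51 for *Hoxb3*, -1.53 for *Hoxb2* and -2.27 for *Hoxb1*. Stage and part of the bud cannot be told apart in it.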

How the results depend on the processing

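At E9.25, 0 of 9 members passed in the main fit. Instead, 2 passed with array weights, 2 in the model of all 14 libraries and 1 with the replicate block by title numbers (*Hoxb1*). With a library left out, 0 to 3 passed. Of all genes, 0.264%, 7.04% and 0.339% passed as higher with array weights, in that model and with that block. The share was 0.108% in the main fit and 0.0137% to 1.16% with a library left out. The title numbers did not pair the libraries. Deviations of same-numbered WT and Gli3-/- libraries had r of -0.18, -0.15 and -0.17 in the earlier stage and 0.12, -0.12 and -0.16 at E10.5. By table number, E10.5 gave 0.05, 0.29 and 0.17, beside -0.16 to 0.12 for pairs of unlike number, so those numbers may pair the E10.5 libraries. The E9.25 block drops Gli3-/- replicate 4, which has no partner. In the interaction, 3 members passed with the replicate block, by title numbers or by the deposited tables' numbers, in place of 8, and 6 to 8 with a library left out. Of all genes, 0.159% and 0.238% passed as negative with these blocks, and 0.677% to 7.87% with a library left out. The counts in the other comparisons stayed within 1.5 times, at 6 to 7 members at E10.5, 6 to 8 between stages in WT and 9 in Gli3-/- with a library left out. In these fits, 1.14% to 2.91%, 7.81% to 9.96% and 5.85% to 12.7% of all genes passed as lower, in that order. Small E9.25 values changed sign: *Hoxb8* to -0.067 (quantile), -0.041 (size factors) and -0.057 (array weights), *Hoxb6* to -0.034 (size factors), and *Hoxb9* to 0.0078 with the block, ranging from -0.87 to 0.0078 with a library left out. *Hoxb3* between stages in WT became 0.099 with array weights and ranged from -0.18 to 0.18 with a library left out. *Hoxb9* in the interaction became -0.080 with the title block and ranged from -0.014 to 0.87 with a library left out. The cause was not tested. *Hoxb5* at E10.5 lost its call without a filter (limma adjusted p = 0.0839), with either block (0.0897 and 0.063) and without WT replicate 4, Gli3-/- replicate 2 or 3 (0.0504 to 0.0568), and *Hoxb4* without a filter (0.0586) and with the title block (0.0576). Over all genes, 20 passed at E9.25 (0 without a filter, 1185 in the model of all 14 libraries), 747 at E10.5 (164 with the title block, 1356 with array weights), 7520 between stages in WT (4699 with the title block, 8556 with array weights), 3853 in Gli3-/- (2129 without E10.5 Gli3-/- replicate 2, 6520 with array weights), and 348 in the interaction (42 with the title block, 1433 without E9.25 WT replicate 1). The block fit between stages in Gli3-/- had 2 residual degrees of freedom and limma estimated an infinite prior, so its p-values rest on 1 variance trend shared by all genes and are not quoted. Pools of few embryos and 3 or 4 libraries per group limit precision, and a TPM below 1 rests on few reads.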
